A study of Mus musculus with 22 samples.

Results

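The genes of the urea cycle and of the carriers that feed it were followed in mouse liver, as 9 symbols looked up by Ensembl identifier in the table of read counts. They were Gls2, Nags, Cps1, Slc25a15, Otc, Slc25a13, Ass1, Asl and Arg1, and all 9 were present among the 15448 genes of the table. All 9 passed the filter on low counts that left 14785 genes to be tested, with 847 to 97048 reads per library for a single member. The livers came from male CD2F1 mice of wild-type genotype, a hybrid in which the mouse colon carcinoma C26 grows as a model of cancer wasting. The C26-TDCA group (n = 8) carried C26 cells and was injected every day into the peritoneum with 10 mg/kg of taurodeoxycholic acid, a conjugated bile acid whose steroid part is made by gut bacteria. The C26 group (n = 8) carried C26 cells and is described as untreated, and the CT group (n = 6) was sham-injected and labelled as vehicle. Daily injection and TDCA can therefore not be told apart between the C26-TDCA and C26 groups. Whether the C26 group received vehicle is not stated, so C26 and CT may differ in vehicle as well as in tumour. The sources used here do not state the ages of the mice.

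The urea cycle turns the nitrogen of amino acids into urea, and in mammals the whole cycle runs in the liver, mainly in hepatocytes around the portal vein. Its early steps lie in the mitochondrial matrix, where ammonia and bicarbonate are joined to carbamoyl phosphate and then to ornithine, and its later steps lie in the cytosol, where aspartate brings in more nitrogen and arginine is split into urea and ornithine. Carriers of the inner mitochondrial membrane return the ornithine and supply the aspartate. Hormones of fasting and a protein-rich diet are known to raise the enzymes together.

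The sum of counts per library ranged over 20.5 to 28.3 M (C26-TDCA), 17.5 to 28.1 M (C26) and 16.5 to 25.3 M (CT). Levels below are CPM, counts scaled to a common library size after correction by the trimmed mean of M values. The 20 most abundant genes took 34.8% to 39.2% of the counts in C26-TDCA, 33.1% to 39.9% in C26 and 21.6% to 21.9% in CT, so that the scaling weighs on comparisons with CT. With library totals alone the median log2 fold change of all genes moved by -0.31 for C26-TDCA over CT and by -0.34 for C26 over CT. Summed levels of 8 hepatocyte markers overlapped between groups, at 58081 to 67850 CPM in C26-TDCA, 52727 to 72310 CPM in C26 and 58831 to 67184 CPM in CT, but its members moved in opposite directions. Alb (albumin) fell to 14135 CPM in C26-TDCA and 15181 CPM in C26, against 42189 CPM in CT, while Fgb, a fibrinogen chain of the acute phase, rose to 32923 and 33906 CPM, against 3792 CPM. Of the 8, 4 rose and 2 fell in C26-TDCA over CT, and 3 rose and 2 fell in C26 over CT. Of all genes tested, 57.0% and 58.1% were called in these comparisons in either direction. Genes of the mitochondrial genome took 3.21% to 3.89% of the counts in C26-TDCA, 2.92% to 4.15% in C26 and 5.59% to 6.18% in CT, without overlap between either tumour group and CT, and the part of this difference in the results below was not tested. In RNA of whole liver, fewer cells of a type and less RNA per cell cannot be told apart.

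The comparison of C26 with CT livers asked how these transcripts differed in tumour-bearing mice, and they did not move in 1 direction. In C26 livers 3 members rose, Slc25a15, Nags and Arg1, and 5 fell, Otc, Cps1, Slc25a13, Gls2 and Ass1, while Asl was not called. The 8 of 9 called members stand beside 58.1% of all genes tested that were called in this comparison at an adjusted p under 0.05 (edgeR quasi-likelihood test, Benjamini-Hochberg), so the number of calls is no result about the members in itself. By direction, 28.9% of all genes were called higher and 29.2% lower. In 6 of the 9 members the C26 and CT libraries did not overlap, beside 29.5% of all genes. The median log2 fold change of the members was -0.51, with 0.00 over all genes tested. Against the same CT libraries, C26-TDCA livers had 3 members higher and 4 lower, beside 57.0% of all genes called in either direction (28.7% higher, 28.2% lower), with a median of -0.17 and 0.01 over all genes. In 4 members the C26-TDCA and CT libraries did not overlap, beside 31.6% of all genes. With TDCA set against C26 alone, edgeR called 0 of 9 members, beside 1.97% of all genes (1.73% higher, 0.237% lower). Both comparisons with CT share its 6 libraries.

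**Figure D1:**
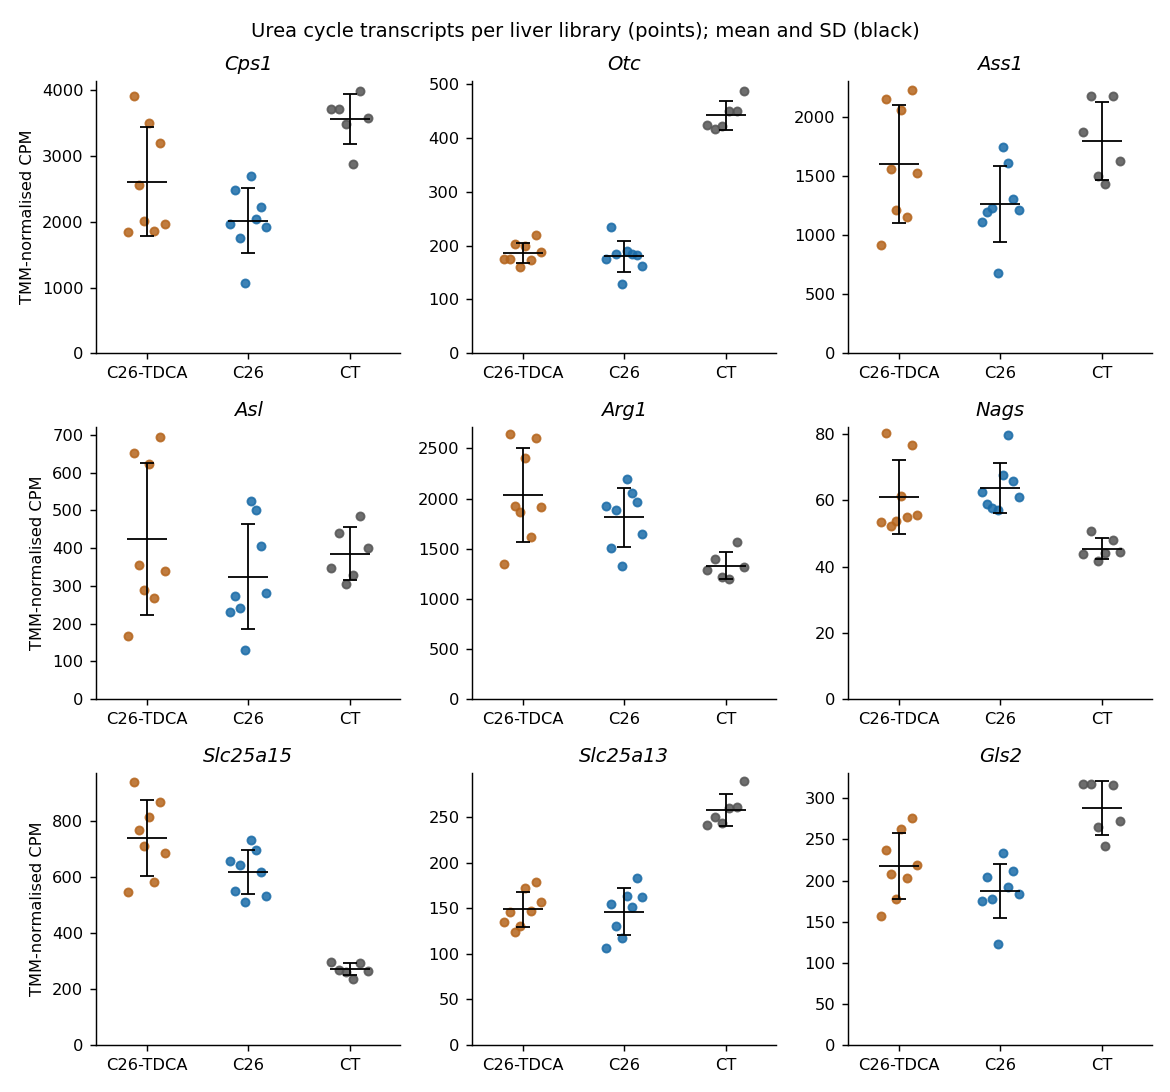
TMM-normalised CPM (linear axes from 0) of the 9 members in each library (points) of C26-TDCA, C26 and CT livers, with the group mean and SD in black. Otc and Slc25a13 sit lower and Slc25a15 and Nags sit higher in both tumour groups than in every CT library.

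Ammonia reaches the cycle in the mitochondrion. Gls2, the liver-type glutaminase that releases ammonia from glutamine, lies on chromosome 10 from 128194457 to 128210004 on the plus strand (GRCm38). It stood at 157 to 276 CPM in C26-TDCA (median 213), 123 to 234 CPM in C26 (median 188) and 242 to 318 CPM in CT (median 294). All 8 C26 libraries lay below every CT library, as did 6 of the 8 C26-TDCA libraries. The fold change was -0.62 (log2, SE 0.12, edgeR adjusted p = 0.000132) for C26 over CT and -0.41 (SE 0.12, adjusted p = 0.00686) for C26-TDCA over CT. Gls2 shares 97 exonic bases with Spryd4 on the other strand. Spryd4 was higher in both tumour groups (log2 fold change 0.51 in C26 over CT and 0.45 in C26-TDCA over CT). The part of this overlap in the level of Gls2 was not tested.

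Nags makes N-acetylglutamate, the activator without which the enzyme Cps1 does not work. It lies on chromosome 11 from 102145513 to 102149477 on the plus strand, and 443 of its exonic bases overlap the antisense gene Gm11586, whose reads cannot be told apart as no source used here states the strand setting of the counting. Nags was the least abundant member, at 52.2 to 80.3 CPM in C26-TDCA (median 55.4), 57.2 to 79.9 CPM in C26 (median 61.8) and 41.7 to 50.7 CPM in CT (median 44.2). Both tumour groups lay wholly above CT. It rose by 0.43 on the log2 scale in C26-TDCA (SE 0.10, edgeR adjusted p = 0.000679) and by 0.49 in C26 (SE 0.10, adjusted p = 0.000159), and neither rise was called with library totals alone (0.11 and 0.14).

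Cps1 encodes carbamoyl phosphate synthetase 1, the abundant matrix enzyme that commits ammonia to the cycle. It lies on chromosome 1 from 67123026 to 67231259 on the plus strand. Its level was 1848 to 3913 CPM in C26-TDCA (median 2285), 1065 to 2694 CPM in C26 (median 1997) and 2881 to 3992 CPM in CT (median 3646). The 8 C26 libraries lay below every CT library, whereas 3 of the 8 C26-TDCA libraries lay among the CT values. Cps1 fell by 0.82 in C26 over CT (SE 0.18, edgeR adjusted p = 0.000406), or to 0.567 of the CT level. In C26-TDCA over CT the log2 fold change was -0.45 (SE 0.18, adjusted p = 0.0368). That second call was weak. It was lost when any 1 of C26-TDCA 01, 03, 04, 06 or 08 or of CT 01, 02, 05, 07 or 08 was left out (log2 fold changes of -0.46 to -0.39, adjusted p of 0.0504 to 0.0729) and with upper-quartile scaling (adjusted p = 0.0529).

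So the transcripts of Nags and Cps1 moved apart. The count of Nags per count of Cps1 was 0.0175 to 0.0296 in C26-TDCA, 0.0236 to 0.0537 in C26 and 0.0119 to 0.0153 in CT, and the tumour groups did not overlap with CT. The pair was chosen after its values were seen, and no test was run on the ratio.

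Ornithine is carried into the matrix by the protein of Slc25a15, which exchanges it for citrulline, and is joined there to carbamoyl phosphate by ornithine transcarbamylase, the product of Otc. These neighbours in the pathway had the highest and the lowest log2 fold changes of the 9 members in both comparisons with CT. Slc25a15 spans 22375551 to 22398597 of chromosome 8 (minus strand). It stood at 547 to 937 CPM in C26-TDCA (median 739), 511 to 732 CPM in C26 (median 630) and 237 to 296 CPM in CT (median 267). The lowest tumour library thus exceeded the highest CT library. The rise was 1.45 in C26-TDCA over CT (SE 0.11, edgeR adjusted p = 7.83e-11, 2.74-fold) and 1.19 in C26 over CT (SE 0.11, adjusted p = 2.06e-09, 2.29-fold).

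Otc lies on chromosome X from 10252305 to 10321024 on the plus strand. It stood at 161 to 219 CPM in C26-TDCA (median 181), 129 to 234 CPM in C26 (median 183) and 417 to 488 CPM in CT (median 437). Every tumour library was below every CT library with a wide gap. Otc fell by 1.24 in C26-TDCA over CT (SE 0.09, edgeR adjusted p = 4.37e-11) and by 1.30 in C26 over CT (SE 0.09, adjusted p = 2.20e-11), to 0.422 and 0.407 of the CT level. Per count of Otc there were 3.13 to 5.35 counts of Slc25a15 in C26-TDCA, 2.35 to 3.98 in C26 and 0.525 to 0.698 in CT. The ratio, which no scaling touches, was inverted, with more Slc25a15 than Otc reads in 16 of 16 tumour livers and fewer in 6 of 6 CT livers.

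The promoter windows of these genes differ in base composition, and those of Otc, Slc25a15, Slc25a13 and Nags are shown because these 4 genes changed without overlap between either tumour group and CT. Each window runs from 250 bases before to 50 bases after a RefSeq start site (GRCm38.p6), 5′ to 3′ on the strand of the gene, with capitals for a match to a searched motif. The Otc window, at chrX:10252055-10252354 on the plus strand, was 44.3% G and C with 1 CG dinucleotide. Slc25a15 had 2 windows, both on the minus strand. The window shown, at chr8:22398572-22398871, was 60.7% G and C with 15, and the other, at chr8:22398228-22398527, was 79.0% with 51. The Slc25a13 window at chr6:6217124-6217423 on the minus strand was 65.0% with 17, and that of Nags at chr11:102145263-102145562 on the plus strand was 57.7% with 14.
Otc: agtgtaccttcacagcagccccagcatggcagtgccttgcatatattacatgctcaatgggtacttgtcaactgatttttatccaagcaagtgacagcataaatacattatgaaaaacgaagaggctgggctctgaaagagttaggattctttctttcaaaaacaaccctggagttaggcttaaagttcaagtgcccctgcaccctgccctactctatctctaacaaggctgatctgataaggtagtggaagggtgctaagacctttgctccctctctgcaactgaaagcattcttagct
Slc25a15: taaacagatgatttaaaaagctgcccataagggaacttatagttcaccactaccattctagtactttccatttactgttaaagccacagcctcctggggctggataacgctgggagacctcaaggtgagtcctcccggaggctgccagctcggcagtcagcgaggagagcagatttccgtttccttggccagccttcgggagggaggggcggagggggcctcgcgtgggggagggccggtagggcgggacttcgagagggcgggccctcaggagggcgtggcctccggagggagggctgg
Slc25a13: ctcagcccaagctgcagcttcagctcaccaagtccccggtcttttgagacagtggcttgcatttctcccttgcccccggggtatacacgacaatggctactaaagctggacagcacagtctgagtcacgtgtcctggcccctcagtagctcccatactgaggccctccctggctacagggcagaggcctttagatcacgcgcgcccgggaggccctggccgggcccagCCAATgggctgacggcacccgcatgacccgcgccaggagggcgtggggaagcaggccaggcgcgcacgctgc
Nags: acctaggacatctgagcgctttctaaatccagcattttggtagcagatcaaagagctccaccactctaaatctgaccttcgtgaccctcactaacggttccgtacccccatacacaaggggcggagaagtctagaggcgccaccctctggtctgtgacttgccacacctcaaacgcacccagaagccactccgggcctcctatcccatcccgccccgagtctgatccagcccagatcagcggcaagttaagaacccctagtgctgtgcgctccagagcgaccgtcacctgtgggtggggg
RefSeq windows were found for 5 of the 9 members, Otc, Slc25a15, Slc25a13, Ass1 and Nags, in 6 windows. Both strands were searched for TATAAA (the core promoter box), CCAAT (NF-Y), TGACGTCA (cAMP response element), TTGCNNAA (C/EBP), TGTTCT (glucocorticoid receptor) and TTCNNNGAA (STAT). The match found in these 6 windows was 1 CCAAT in that of Slc25a13, from 22 to 18 bases before the start site. Of all 32851 windows of this length, 37.4% held CCAAT, 19% TGTTCT, 13.6% TATAAA, 10.8% TTGCNNAA, 8.3% TTCNNNGAA and 1.79% TGACGTCA. A match is a description of letters and not a site.

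The cytosolic arm begins with aspartate, which the protein of Slc25a13, the aspartate-glutamate carrier citrin, brings out of the mitochondrion. Slc25a13 spans 6041218 to 6217173 of chromosome 6 (minus strand). It stood at 124 to 179 CPM in C26-TDCA (median 147), 107 to 183 CPM in C26 (median 153) and 242 to 290 CPM in CT (median 255). Both tumour groups lay wholly below CT. The log2 fold change was -0.79 for C26-TDCA over CT (SE 0.10, edgeR adjusted p = 4.78e-07) and -0.82 for C26 over CT (SE 0.10, adjusted p = 2.94e-07). Slc25a12, which encodes aralar, the aspartate-glutamate carrier of muscle and brain, was far less abundant and rose in both, to 27.0 ± 4.08 CPM in C26-TDCA and 26 ± 3.01 CPM in C26 (SD, n = 8 each), against 18.6 ± 3.43 CPM in CT (n = 6; adjusted p = 0.000314 and 0.000962; not called with library totals alone). For each Slc25a12 read there were 4.38 to 6.53 reads of Slc25a13 in C26-TDCA, 3.90 to 7.66 in C26 and 12.3 to 20.2 in CT. Citrin transcripts thus remained the more frequent of the pair in all 22 livers, by a smaller margin in every tumour liver.

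Ass1 encodes argininosuccinate synthetase, which joins citrulline and aspartate. It lies on chromosome 2 from 31470207 to 31520672 on the plus strand. Its level was 916 to 2228 CPM in C26-TDCA (median 1546), 682 to 1745 CPM in C26 (median 1224) and 1433 to 2176 CPM in CT (median 1749). The groups overlapped, with 6 of 8 C26 libraries and 3 of 8 C26-TDCA libraries below every CT library. Ass1 fell by 0.51 in C26 over CT (SE 0.19, edgeR adjusted p = 0.0257), a call that was lost without CT 02 or CT 07 (adjusted p = 0.0634 and 0.0635) and with upper-quartile scaling (0.0520). In C26-TDCA over CT it was not called (-0.17, SE 0.19, adjusted p = 0.479), except with library totals alone (-0.49, adjusted p = 0.0172). Of its 50-base stretches, 38.6% also occur in the processed pseudogene Gm5424. That gene had 69 to 244 reads, or 0.324% to 0.50% of the reads of Ass1. How reads that match both genes were counted is not given, so this number does not show how many Ass1 reads were lost or misplaced.

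Asl encodes argininosuccinate lyase, which releases arginine and fumarate. The gene spans 130011258 to 130029247 of chromosome 5 (minus strand). Its level was 167 to 693 CPM in C26-TDCA (median 347), 130 to 525 CPM in C26 (median 277) and 304 to 486 CPM in CT (median 374). The tumour livers lay on both sides of the CT range, with 3 C26-TDCA libraries above it and 3 below, and 2 C26 libraries above it and 5 below. Asl was not called in C26-TDCA over CT (0.14, 95% interval -0.46 to 0.73, edgeR adjusted p = 0.712) or in C26 over CT (-0.25, -0.84 to 0.34, adjusted p = 0.475). The intervals are wide, and a missed threshold does not show equal levels.

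Arg1 encodes the liver arginase, which splits arginine into urea and ornithine. The gene spans 24915221 to 24927484 of chromosome 10 (minus strand). Its level was 1343 to 2643 CPM in C26-TDCA (median 1921), 1330 to 2196 CPM in C26 (median 1909) and 1202 to 1570 CPM in CT (median 1301). Of the tumour libraries, 7 of 8 in C26-TDCA and 6 of 8 in C26 exceeded every CT library. Arg1 rose by 0.62 in C26-TDCA (SE 0.14, edgeR adjusted p = 0.000402) and by 0.45 in C26 (SE 0.13, adjusted p = 0.00632; 0.10 and not called with library totals alone). Arg2, the mitochondrial arginase of other tissues, stayed at or below 1.03 CPM in every library, so nearly all arginase reads were of Arg1. Macrophages and neutrophils can express Arg1 too. All 12 Kupffer cell and macrophage markers rose in both comparisons with CT, with a summed level of 582 to 737 CPM in C26-TDCA, 458 to 682 CPM in C26 and 297 to 338 CPM in CT, and 7 of 8 measured monocyte and neutrophil markers rose, at 17.7 to 44.1, 19.5 to 50.8 and 2.41 to 6.57 CPM in sum. Over all genes, 28.7% were called higher in C26-TDCA over CT and 28.9% in C26 over CT. No marker of these lists was at 0 in a whole group. Their part in the level of Arg1 was not tested.

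**Figure D2:**
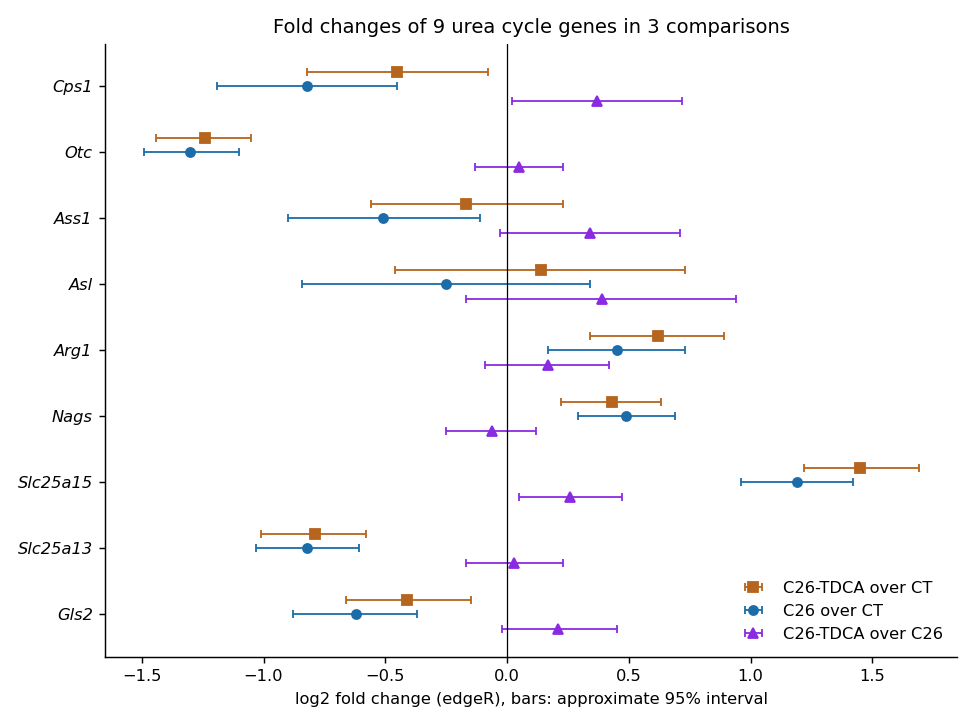
Log2 fold changes from edgeR (symbols) with approximate 95% intervals (bars) for the 9 members in C26-TDCA over CT, C26 over CT and C26-TDCA over C26. Slc25a15 lies right of 0 and Otc left of 0 in both comparisons with CT, and every TDCA comparison with C26 lies within 0.4 log2 units of 0.

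The comparison of C26-TDCA with C26 asked how tumour-bearing mice injected daily with TDCA differed from those described as untreated. It cannot tell the bile acid from the injection. By edgeR 0 of the 9 members were called, 2 had an unadjusted p under 0.05, and DESeq2 and voom with quality weights each called 0. Those with an unadjusted p under 0.05 were Slc25a15 (0.26, 95% interval 0.05 to 0.47, adjusted p = 0.186) and Cps1 (0.37, 0.02 to 0.72, adjusted p = 0.281), both higher in C26-TDCA. The log2 fold changes of the 9 ranged from -0.06 to 0.39 with a median of 0.21, beside -0.01 over all genes. The design fixed 3 members well, with intervals of -0.13 to 0.23 for Otc, -0.17 to 0.23 for Slc25a13 and -0.25 to 0.12 for Nags. It fixed others poorly, with -0.17 to 0.94 for Asl (adjusted p = 0.516), -0.03 to 0.71 for Ass1 (0.356), -0.02 to 0.45 for Gls2 (0.374) and -0.09 to 0.42 for Arg1 (0.547). Means were nevertheless higher in C26-TDCA for 8 of 9 members, Nags being the exception, and the members do not vary independently, as shown next.

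Livers of the same group differed in these transcripts, in some libraries in the same direction for all 9 members. All 9 lay below their group means in C26-TDCA 01, 04 and 06, in C26 04 and in CT 05. In C26-TDCA 05 and 07, C26 05, 06 and 07 and CT 07, 0 lay below. Other libraries were mixed, such as C26-TDCA 03 with 5 below. In C26-TDCA the libraries 02, 05 and 07 held the 3 highest values of 7 of the 9 members, all but Otc and Slc25a13. C26-TDCA 01 was the lowest of its group for 6 members, and C26 04 was the lowest of its group for 8, Slc25a13 being the exception. Asl spanned 4.14-fold within C26-TDCA, 4.03-fold within C26 and 1.60-fold within CT, while Otc spanned 1.36-fold, 1.82-fold and 1.17-fold. The coefficient of variation was higher in both tumour groups than in CT for 9 of 9 members, beside 49.8% of all genes tested. The depth was 27.9, 27.0 and 24.4 M counts in C26-TDCA 02, 05 and 07, 24.1 M in C26-TDCA 01 and 27.3 M in C26 04. The TMM scaling factor moved with these libraries, being lowest of C26-TDCA in 02, 07 and 05 (0.89, 0.915 and 0.95), highest there in 01 (1.005) and highest of C26 in 04 (0.982). Among the markers of blood cells, the summed monocyte and neutrophil markers stood at 17.7 to 24.4 CPM in C26-TDCA 02, 05 and 07 and at 27.0 to 44.1 CPM in the other 5 of that group, and at 50.8 CPM in C26 04 against 19.5 to 27.9 CPM in the other 7 of C26. Erythroid markers were highest of C26 in C26 04 as well, at 641 CPM in a group whose lowest library had 159 CPM, but in C26-TDCA they were highest in 07, at 330 CPM, followed by 01, at 315 CPM. The part of depth, scaling and these markers in the spread was not tested.

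**Figure D3:**
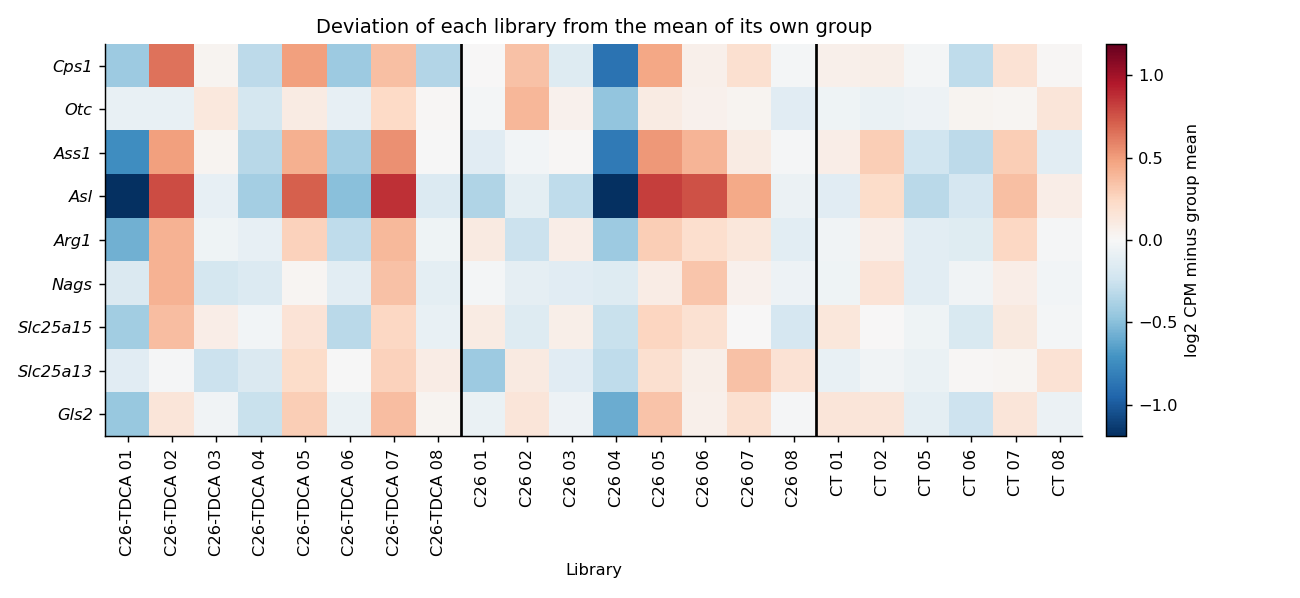
Log2 CPM of each member (rows) in each library (columns) minus the mean of its own group, red above and blue below that mean, with black lines between C26-TDCA, C26 and CT. Some whole columns share a colour, as in C26 04 and C26-TDCA 07, while others are mixed, as in C26-TDCA 03. Asl has the strongest colours.

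As a description over the 22 libraries, the log2 deviations of 2 members from their group means had Pearson correlations of 0.20 to 0.96 over the 36 pairs, with a median of 0.71. All libraries share 1 scaling, and the median correlation of a member with the 7533 genes of at least 10 CPM was 0.03 to 0.07. Ass1 and Asl, which act in succession, had the highest value at 0.96, and Slc25a15 and Slc25a13 the lowest at 0.20. Otc and Slc25a13 had no other member among the 100 genes most like them, whereas Ass1, Asl, Arg1 and Slc25a15 each had 6 members there. The median correlation of Otc and Slc25a13 with the other members was still 0.52 and 0.51, beside 0.06 and 0.07 with all genes searched.

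The 3 genes most like each member were found by the same measure. For Cps1 they were Aass, of lysine breakdown (0.92), Kynu, of tryptophan breakdown (0.88), and Ass1 (0.87). For Ass1 they were Asl (0.96), the glycine methyltransferase gene Gnmt (0.95) and Acmsd, of tryptophan breakdown (0.93). For Asl they were Acmsd (0.96), Ass1 (0.96) and Crcp (0.96), which starts 42 bases from Asl on the opposite strand. For Arg1 they were the methionine adenosyltransferase gene Mat1a (0.96), the cystathionine lyase gene Cth (0.95) and Got1, the cytosolic aspartate aminotransferase (0.95). Slc25a15 was most like Arg1 (0.93), Cth (0.92) and the protease gene Ctsl (0.91), and Gls2 most like Ass1 (0.93), Gnmt (0.91) and Asl (0.89). Otc and Slc25a13 had no member among these 3. Otc was most like Cox7b, a subunit of cytochrome oxidase, Rnase4 and Gcdh, of lysine breakdown (0.85 each), and Slc25a13 was most like the glycogen synthase gene Gys2 (0.93), the phytanoyl hydroxylase gene Phyh (0.93) and the epoxide hydrolase gene Ephx2 (0.90). Nags was most like Aldoa (0.87), Xpa (0.87) and Tmem256 (0.84).

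Levels of different genes were compared as CPM per kb of merged exons, since long transcripts yield more reads. In CT the order was Ass1 (745 ± 136, SD, n = 6), Cps1 (641 ± 67.4) and Arg1 (597 ± 61.6), then, after a gap, Otc (104 ± 6.23), Gls2 (83.1 ± 9.47), Asl (79.7 ± 14.5), Slc25a13 (67.9 ± 4.64), Slc25a15 (47.9 ± 3.86) and Nags (16.0 ± 1.15). In CT, the neighbours Ass1 and Cps1, Cps1 and Arg1, Gls2 and Asl, and Asl and Slc25a13 differed by less than their spread. In both tumour groups Arg1 led, at 915 ± 211 CPM per kb in C26-TDCA and 814 ± 132 in C26 (n = 8 each). Slc25a15 stood next after Ass1 and Cps1 there, at 131 ± 23.9 and 110 ± 14.1 CPM per kb, and Otc came after Asl and Gls2, at 44.0 ± 4.49 and 42.5 ± 6.97 CPM per kb. Slc25a13 followed at 39.2 ± 5.13 and 38.5 ± 6.78 CPM per kb, a gap smaller than the SD of either gene in C26 and about as large as the SDs in C26-TDCA. Per kb of the longest annotated transcript in place of merged exons, Arg1 led as well in C26-TDCA (1380) and C26 (1229). On that scale, however, Asl (175) stood above Slc25a15 (167) in C26-TDCA. In CT Arg1 (901) then stood above Cps1 (641), and Asl (160) above Otc (148).

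**Figure D4:**
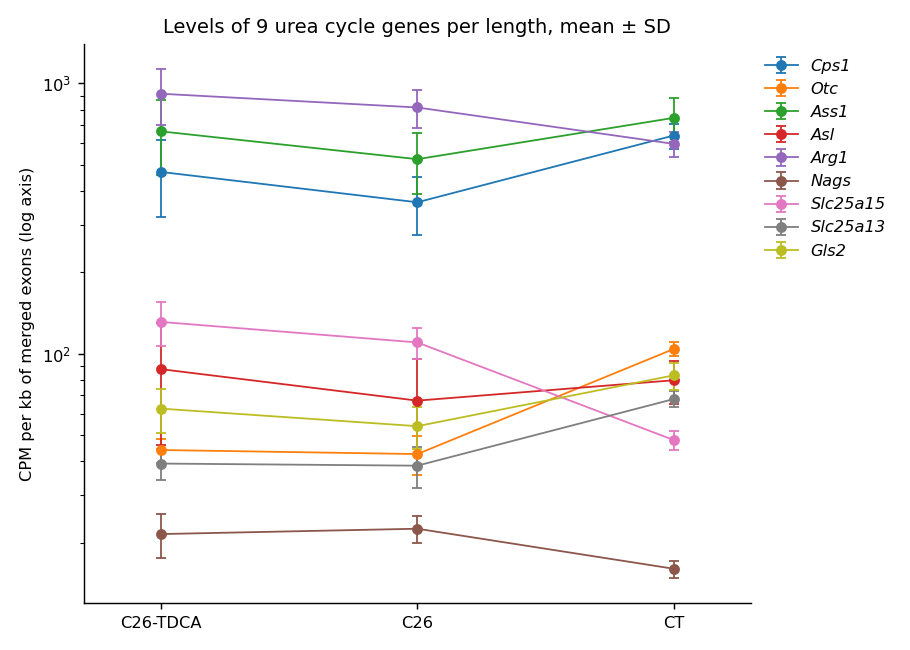
Mean CPM per kb of merged exons (log axis) with SD for the 9 members in C26-TDCA, C26 and CT livers, with lines joining the same gene. Lines of Slc25a15 and Otc cross between C26 and CT, at 110 and 42.5 in C26 and at 47.9 and 104 in CT.

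Around the cycle, genes that supply its nitrogen were measured as a list of 18, of which 17 were tested. In C26 over CT 4 rose, 7 fell and 6 were not called, beside 58.1% of all genes called, with a median of 0.14 beside 0.00 over all genes. In C26-TDCA over CT 4 rose, 6 fell and 7 were not called, beside 57.0% of all genes called (median -0.08). These numbers of calls are no result about the list in themselves. With library totals alone 1 rose in each comparison. Car5a, the mitochondrial carbonic anhydrase that supplies bicarbonate to Cps1, fell to 14.0 CPM in C26-TDCA and 14.7 CPM in C26, against 46.6 CPM in CT (-1.74, SE 0.19, adjusted p = 1.88e-08, and -1.67, SE 0.19, adjusted p = 3.44e-08). Sirt3, a mitochondrial deacetylase, fell by 0.76 and 0.87, and Gpt2, the mitochondrial alanine aminotransferase, by 0.85 and 0.87. Got2, the mitochondrial aspartate aminotransferase, fell by 0.35 and 0.28 (edgeR adjusted p of at most 0.000177 for each of these genes in C26). The call of Got2 in C26 over CT was lost with a replicate block (adjusted p = 0.0505). Got1, the cytosolic aspartate aminotransferase, was among the 4 that rose in C26 over CT (1.20, SE 0.31, edgeR adjusted p = 0.00189). Sirt5, a mitochondrial desuccinylase that acts on Cps1, fell by 0.61 in C26-TDCA (adjusted p = 5.27e-06). It was called lower in C26 over CT as well (-0.35, edgeR adjusted p = 0.00262). That call was lost with a replicate block and the length and GC trend removed (adjusted p = 0.0866). Between C26-TDCA and C26, Sirt5 was not called (-0.26, edgeR adjusted p = 0.132), except when a certain C26 library was left out (0.0366). Glul, the glutamine synthetase of hepatocytes around the central vein, was not called in C26-TDCA over CT (0.21, adjusted p = 0.246; called with a replicate block, at 0.0191 with the length and GC trend removed too) or in C26 over CT (0.23, adjusted p = 0.186; 0.0478 without C26 01), and both signs turned with library totals alone (-0.10 and -0.11).

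Genes that use arginine and ornithine were a list of 22, of which 20 were tested. In C26 over CT 8 rose, 8 fell and 4 were not called, beside 58.1% of all genes called. In C26-TDCA over CT 9 rose, 10 fell and 1 was not called, beside 57.0% of all genes called. The medians were -0.12 and -0.24. Oat, the ornithine aminotransferase that takes ornithine out of the cycle, rose to 640 ± 191 CPM in C26-TDCA and 541 ± 194 CPM in C26 (SD, n = 8 each), against 240 ± 22.1 CPM in CT (n = 6; 1.42, SE 0.21, edgeR adjusted p = 2.38e-06, and 1.18, SE 0.20, adjusted p = 2.66e-05). There were 0.204 to 0.418 counts of Otc per count of Oat in C26-TDCA, 0.223 to 0.554 in C26 and 1.65 to 2.00 in CT. Otc thus had more reads than Oat in 6 of 6 CT livers and fewer in 16 of 16 tumour livers. Per kb of merged exons, however, the 2 genes were alike in CT, at 104 ± 6.23 CPM for Otc and 102 ± 9.35 CPM for Oat. In CT, the larger number of Otc reads therefore does not show a higher level. Gatm, which makes guanidinoacetate from arginine, rose by 1.49 and 1.29, and Nos3, the endothelial nitric oxide synthase, by 1.55 and 1.54, while Ddah1, which breaks down methylated arginine, fell by 2.51 and 2.24 and Azin1, an antizyme inhibitor of polyamine control, by 0.70 and 0.85 (C26-TDCA and C26 over CT, adjusted p of at most 6.09e-08). The exchange carrier Slc25a2 and the inducible synthase Nos2 were not analysed here.

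The list of regulators held 18 genes of the hormones and transcription factors known to act on urea cycle genes. In each comparison with CT 3 rose, 8 fell and 7 were not called, but the genes were not all the same. Foxo1 and Onecut1 were called lower in C26 over CT alone, and Gcgr and Prkaca in C26-TDCA over CT alone. The medians were -0.20 in C26-TDCA and -0.24 in C26. Of all genes 57.0% and 58.1% were called there, so these numbers of calls are no result about the regulators in themselves. Cebpd, an acute phase factor of the C/EBP family, rose by 2.45 in C26-TDCA and 2.55 in C26. Foxo3, a fasting-responsive factor, fell by 0.93 and 1.14, and Adcy6, an adenylate cyclase, by 0.79 and 0.74 (edgeR adjusted p of at most 6.21e-08 for these in each). Nr3c1, the glucocorticoid receptor gene, stood at 58.7 to 79.9 CPM in C26-TDCA (median 72.7), 38.9 to 67.1 CPM in C26 (median 57.9) and 86.9 to 114 CPM in CT (median 99.2), so that both tumour groups were wholly below CT. It was the single gene of the 55 tested in these 3 lists that edgeR called between C26-TDCA and C26 (0.37, SE 0.09, adjusted p = 0.0395). That call was lost with the length and GC trend removed, in a fit of C26-TDCA and C26 only and with a replicate block (adjusted p of 0.00948 to 0.525 over the alternatives), and in 11 of 22 fits that left out 1 library (0.0154 to 0.0996). DESeq2 called 2 regulators in this comparison, Nr3c1 and the glucagon receptor gene Gcgr (adjusted p = 0.0474 by DESeq2). In the same comparison edgeR called 0 of the nitrogen supply genes, beside 1.97% of all genes, with 4 at an unadjusted p under 0.05 and 0 by DESeq2. Of the arginine and ornithine genes 0 were called, with 4 at an unadjusted p under 0.05 and 1 by DESeq2, the arginine transporter gene Slc7a2 (0.48, edgeR adjusted p = 0.073).

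**Figure D5:**
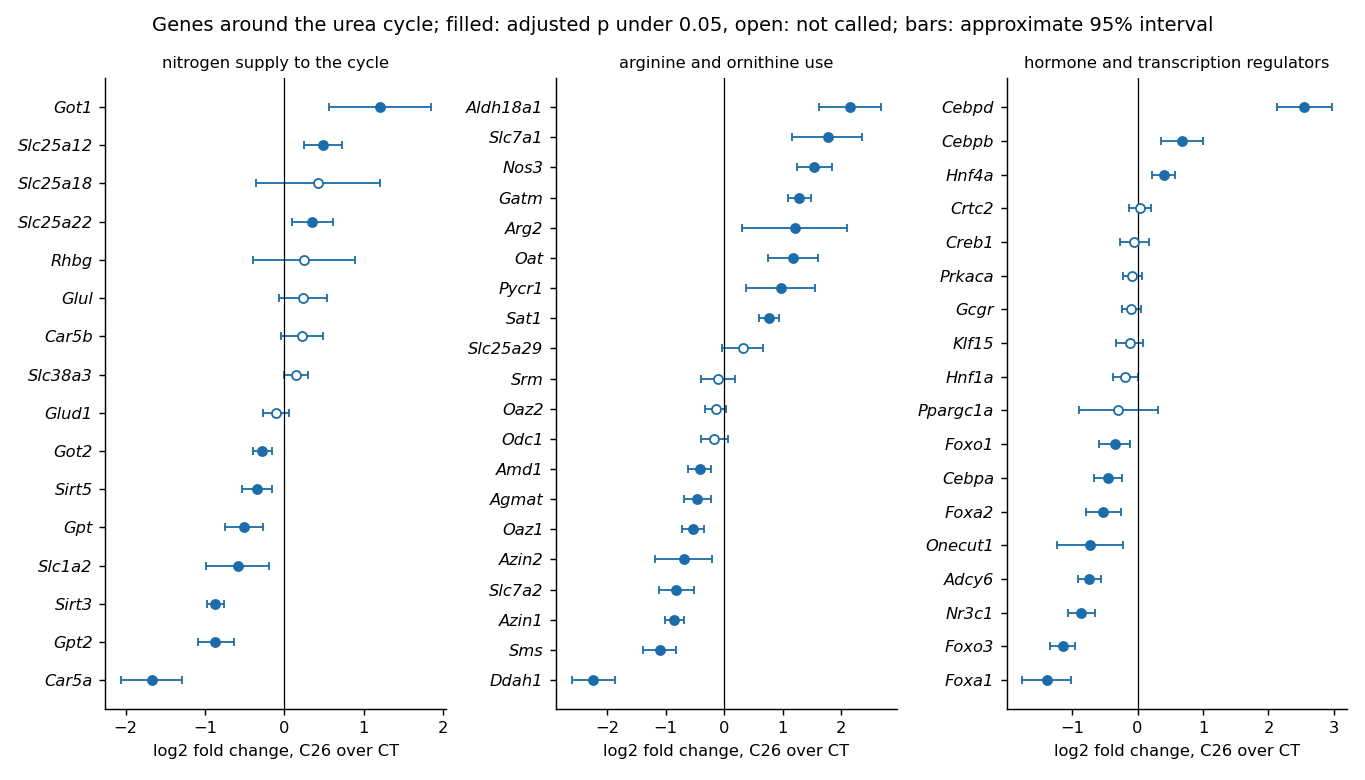
Log2 fold changes of C26 over CT (points) with approximate 95% intervals for genes of nitrogen supply, of arginine and ornithine use and of regulation, filled where the adjusted p was under 0.05. Each list spans both sides of 0, from Car5a (-1.67) to Got1 (1.20), Ddah1 (-2.24) to Aldh18a1 (2.16) and Foxa1 (-1.38) to Cebpd (2.55).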

How the data were processed

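Liver polyA RNA of 22 mice was sequenced, and the authors deposited raw read counts per Ensembl gene, used here as given. Per the submitters' processing notes, HISAT2 2.2.1 and featureCounts 2.0.3 were used with GRCm38, and Trimmomatic 0.40, FastQC and bcl2fastq 2.17 are named as well. Annotation release, strand setting and the handling of multi-mapped reads: not given in the sources used here. Groups came from the sample titles.

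Symbols, positions and lengths were taken from GENCODE M21 (GRCm38), which matched 15443 of 15448 identifiers. Genes were kept by filterByExpr (minimum count 10), scaled by TMM, and fitted in edgeR 4.0.16 (R 4.3.3) with 1 mean per group over all 22 libraries. The quasi-likelihood F test was adjusted by Benjamini-Hochberg over the 14785 genes tested and called at 0.05. Standard errors, from the F statistic and the log2 fold change, are approximate. The median biological coefficient of variation was 15.1%, and 3 counts were 0.106 to 0.182 CPM. The pipeline was tested on simulated data. DESeq2 1.42.0, limma 3.58.1 (voom with quality weights), other scalings and filters, a loess trend on length and GC (span 0.3), 2-group fits, a replicate block and leaving out each library were alternatives. Mice are separate animals by the design text. The closest pair of libraries within a group had a chi-square per degree of freedom of 11, so none looked like a copy.

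All 9 members are named, with up to 4 called genes by p of each pathway list, up to 2 where none was called, the partner genes Glul, Arg2, Oat and Slc25a12, and the 3 most like genes of each member. Some genes that this rule gives are not named, and 1 gene of the nitrogen supply list is counted in the list but not reported here. The members and lists were chosen with earlier results of these data known, so no p over the members alone is given. Protein sequences were not used here.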

Additional observations from a re-analysis of the deposited data

Results flagged for a closer look

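Nags in C26 06 stood at 79.9 CPM, far from the other 7 C26 libraries at 57.2 to 67.6 CPM. Its gap to the nearest was 0.54 of the range of the group, past Dixon's critical value for 8 samples. Of the 27 combinations of 9 members and 3 groups this was the single one so marked, and chance marks about 5% of them. Without that library the rise of Nags in C26 over CT kept its call, within the range of 0.44 to 0.52 (log2) that leaving out any 1 library gave.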

How the results depend on the processing

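The numbers of members called kept within 1.5 times of those reported under all 11 alternatives and all 22 fits without 1 library, except that with library totals alone 1 member rather than 3 was called higher in C26 over CT, and Asl joined the lower members (-0.60, adjusted p = 0.0498). That scaling moved the median log2 fold change of all genes by -0.34 in C26 over CT, and its part in these changes was not tested. Leaving out 1 library gave 3 higher and 4 to 5 lower members in C26 over CT, 3 higher and 3 to 4 lower in C26-TDCA over CT, and 0 and 0 in C26-TDCA over C26. With library totals alone the log2 fold changes of Slc38a3 (-0.20 in C26 over CT) and Crtc2 (-0.30 in C26 over CT, -0.25 in C26-TDCA over CT) had the opposite sign of those reported (0.14, 0.04 and 0.06). All genes called numbered 5007 in C26 over CT and 4860 in C26-TDCA over CT when a mean of 10 CPM was asked, since fewer genes were tested, and 8195 to 8708 and 8070 to 8563 without 1 library. In C26-TDCA over C26 the 291 called genes became 554 with DESeq2, 468 with voom, 45 with 2 groups only, 18 after removing the length and GC trend and 59 to 594 without 1 library; the cause was not tested. Replicate numbers in the titles were not taken as pairs in the main fit, as the mice are separate animals by the design text. Same-numbered libraries had correlations of -0.262 to 0.129 (C26 and CT), -0.081 to 0.279 (C26-TDCA and CT) and -0.456 to 0.687 (C26-TDCA and C26). Of these, 1 of 6, 3 of 6 and 2 of 8 (numbers 3 and 4, at 0.687 and 0.515) correlated best with their own number. The correlations cannot show whether a number marks a shared day or batch. With the number as a replicate block the calls were 7199, 7719 and 21, and 0 in C26-TDCA over C26 with the trend removed too; Ass1 in C26 over CT was then not called (-0.36, adjusted p = 0.0819).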

Other observations

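Markers of the hepatocyte zones did not move as blocks. Of 10 genes known from periportal hepatocytes, where the urea cycle is most active, 3 rose, 4 fell and 3 were not called in both C26-TDCA over CT and C26 over CT. Ctsc, a lysosomal protease, rose by 2.60 in C26-TDCA and 2.52 in C26, and Sds, the serine dehydratase, by 1.21 and 1.16, while Cyp2f2, a periportal cytochrome P450, fell by 3.24 and 2.93 (edgeR adjusted p of at most 3.06e-07 for each). Of 10 genes known from pericentral hepatocytes, 1 rose and 4 fell in C26-TDCA over CT, and 1 rose and 5 fell in C26 over CT. Over all genes, 57.0% and 58.1% were called in these comparisons in either direction. The summed periportal levels were 6368 to 8312 CPM in C26-TDCA, 6000 to 8623 CPM in C26 and 8413 to 10541 CPM in CT. Between C26-TDCA and C26, 0 genes of either list were called by edgeR, beside 1.97% of all genes, with 1 in each at an unadjusted p under 0.05. DESeq2 called 1 periportal and 0 pericentral genes.

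The 9 members together took 0.537% to 0.973% of all counts in C26-TDCA, 0.407% to 0.771% in C26 and 0.838% to 1.11% in CT. Crcp, the neighbour of Asl, was not called in any comparison (-0.22 in C26 over CT, edgeR adjusted p = 0.170).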
